A study of Mus musculus with 20 samples.

Results

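The genes described here are 49 mouse genes, called mitotic genes below. Most have products that run mitosis, the division of a cell's chromosomes and cytoplasm, and 2 (Pif1 and Mtfr2) were listed under other roles. The 49 were chosen by name, from a list drawn up with earlier results of these data known. All 49 had a row in every deposited count table, among 24862 gene rows. All 49 passed the filter on low counts in each of the 3 comparisons.

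The study concerned TH17 cells, CD4 T cells that make interleukin-17, and a pathway of the microRNA miR-21, the ubiquitin ligase Peli1 and c-Rel, a subunit of the transcription factor NF-kB encoded by Rel. RNA-seq was made from 12 libraries in 6 groups of 2, all from C57BL/6 mice. The labels give no age of the animals, and nothing in them says if a replicate was a further animal or culture, so the p-values below measure the spread between these libraries, which may be technical. Samples profiled by ATAC-seq (8) were not analysed here.

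Both sorted groups were GFP-positive TH17 cells, taken from the central nervous system (CNS) or the ileum, with 50000 cells per sample and a low-input library kit. The Ad-control and Ad-c-Rel groups were naive CD4 T cells activated through CD3 and CD28 and cultured as TH17(β) cells, with 2 ng/ml TGF-β1 and 20 ng/ml IL-6. Per the series' design text, Ad-c-Rel cells overexpressed c-Rel and Ad-control cells were their control. The miR-21-/- and control groups were naive CD4 T cells of knockout and control mice, activated in the same way and cultured as TH17(23) cells with 20 ng/ml each of IL-23, IL-6 and IL-1β. Both culture conditions held antibodies that block IL-4 and IFN-γ. The labels do not say which control animals were used or how the Ad constructs reached the cells.

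Libraries held 15421743 to 19930807 gene counts in the sorted and Ad groups and 32766097 to 36711252 in the miR-21 groups. The targeted genes went with the labels. Rel was at 10.8 and 7.02 on the counts-per-million scale (CPM, of all gene counts) in Ad-control and at 57.5 and 61.9 in Ad-c-Rel, and Mir21a had 0 counts in both miR-21-/- libraries against 25 and 20 in the controls. The 11 T cell markers in the tables were present in every library. The 4 TH17 markers used (Il17a, Il17f, Il23r and Ccr6) summed to 7799 and 8913 CPM in ileum but to 181 and 146 CPM in CNS, where 19 myeloid and microglia markers summed to 21930 and 22520 CPM.

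Mitosis genes are largely silent in resting T cells and are switched on as an activated cell nears division. Their transcription in the phase before mitosis depends on the MuvB protein complex, which recruits the activators B-MYB and FOXM1 in cycling cells and, with retinoblastoma-family proteins, forms the repressive DREAM complex in resting cells. Many of these genes carry a cell cycle genes homology region (CHR), the element that MuvB contacts, and CCAAT boxes, which the factor NF-Y binds. Because the libraries are bulk samples, fewer dividing cells and less mitotic RNA per dividing cell cannot be told apart in any value below.

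The mitotic genes together took 0.109% to 0.125% of gene counts in the sorted groups, 0.257% and 0.271% in Ad-control, 0.122% and 0.127% in Ad-c-Rel, 0.315% and 0.416% in the miR-21 controls and 0.440% and 0.610% in miR-21-/-. By group mean, miR-21-/- was the highest of the 6 groups for 41 of the 49 genes and Ad-control for 6. The ileum was the lowest for 25 genes, Ad-c-Rel for 13 and the CNS for 10. Tissue or culture differs between the 3 pairs of groups, and the miR-21 libraries were deeper than the others. Library kits may differ too, but the labels do not clearly give the kit of the Ad libraries. This order is therefore a description of the libraries only. Mki67, which encodes the proliferation antigen Ki-67, was at 42.6 and 24.9 CPM in CNS and 60.0 and 41.6 in ileum. In the Ad pair it was at 40.6 and 36.9 in Ad-control and 17.8 and 22.1 in Ad-c-Rel. In TH17(23) cells it reached 265 and 552 in the controls and 391 and 658 in miR-21-/-. Cdk1, the kinase that drives entry into mitosis, varied less, from 16.4 CPM in an Ad-c-Rel library to 73.8 in a miR-21-/- library.

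**Figure D1:**
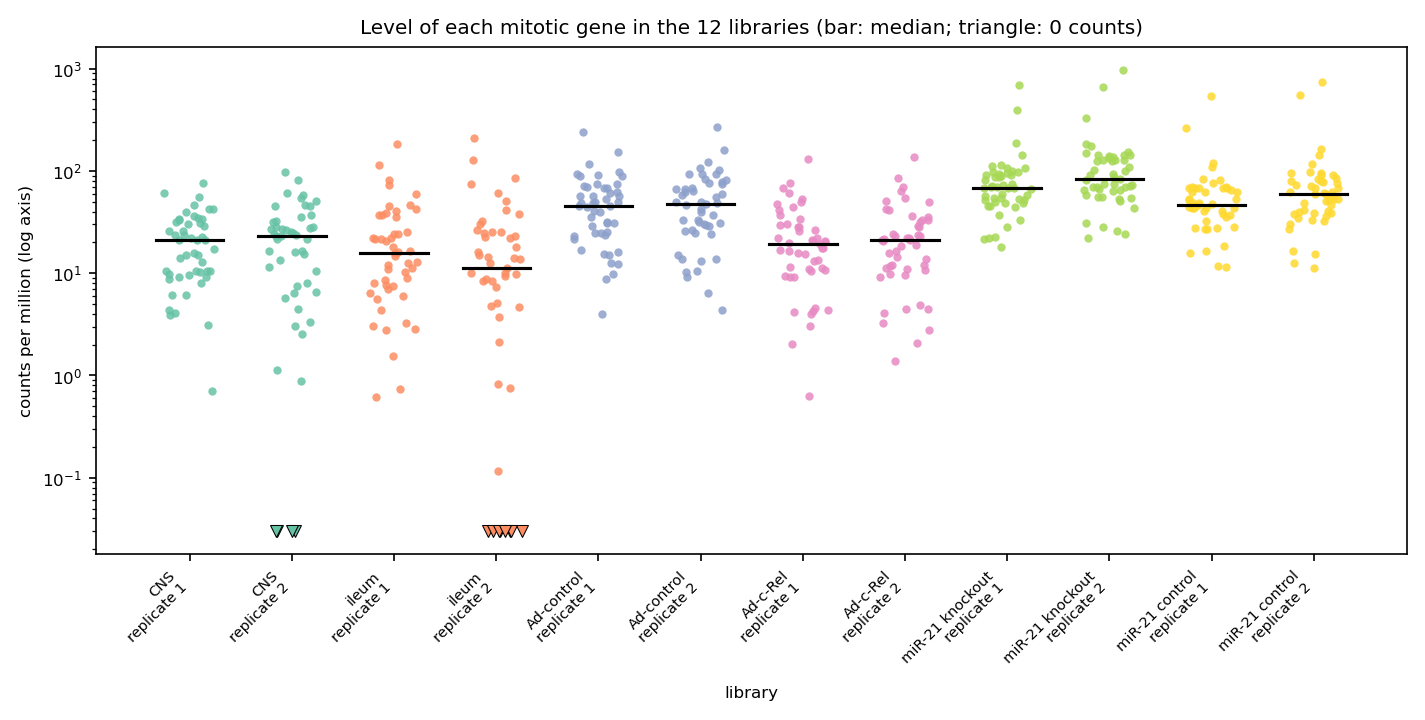
Level of each of the 49 mitotic genes in each of the 12 libraries, on the counts-per-million scale (CPM, log axis); points are genes, bars the library's median and triangles genes with 0 counts. Medians are 45.8 and 47.9 in Ad-control and 19.3 and 21.1 in Ad-c-Rel, and genes at 0 appear in replicate 2 of CNS (4) and of ileum (8).

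Overexpression of c-Rel went with lower mitotic RNA nearly throughout the list. In Ad-c-Rel against Ad-control, 47 of the 49 genes fell and 0 rose (edgeR quasi-likelihood test, Benjamini-Hochberg adjusted over 11711 genes, threshold 0.05), where 6.12% of all genes tested fell. The median log2 fold change was -1.24, which is 2.36-fold lower, against -0.01 for all genes tested, and 35 genes lay below -1. The libraries of the groups did not overlap for the same number, 47 genes, all lower in Ad-c-Rel, against 28.6% of all genes lower without overlap. Of the 50 genes with the lowest fold changes among those tested, 17 were mitotic genes of this list, and 41 of the 49 lay among the lowest 200. Because the list was drawn up with earlier results of these data known, these ranks are a description and no test. The same 47 genes fell in 10 of the 11 alternative analyses. The exception was 1 fit over all 12 libraries, where the sorted groups entered the estimate of the spread: there the median was again -1.24, 0 of 49 passed the edgeR adjusted threshold (smallest adjusted p = 0.119) and 22 had an unadjusted p under 0.05. The 11 T cell markers summed to 7258 and 7498 CPM in Ad-control and 7728 and 7679 in Ad-c-Rel. The 4 TH17 markers summed to 3321 and 3592 CPM in Ad-control and 6498 and 6419 in Ad-c-Rel, and 4 of 4 were higher by the same edgeR test. Their part in the mitotic values was not tested.

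Promoters of 7 of these genes are printed to show the sequence context of genes that fell together, at -1.13 (Ccnb1), -1.62 (Ccnb2), -1.36 (Cdc20), -0.87 (Cdk1), -0.79 (Kif11), -1.39 (Ube2c) and -0.58 (Melk) on the log2 scale. Sequences are those of the RefSeq table for GRCm38.p6, and each run is the 120 bases just before the listed start site, 5′ to 3′ on the gene's strand. Capitals mark TTTGAA, the core of the CHR, and CCAAT, each on either strand, so they also read TTCAAA or ATTGG. Intervals are chr13:100786487-100786606 on the minus strand for Ccnb1, chr9:70421555-70421674 minus for Ccnb2, chr4:118437344-118437463 minus for Cdc20, chr10:69352913-69353032 minus for Cdk1, chr19:37376262-37376381 plus for Kif11, chr2:164769809-164769928 plus for Ube2c and chr4:44300797-44300916 plus for Melk.
Ccnb1: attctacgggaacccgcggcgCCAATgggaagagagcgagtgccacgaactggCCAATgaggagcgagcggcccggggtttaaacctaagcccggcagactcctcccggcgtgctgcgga
Ccnb2: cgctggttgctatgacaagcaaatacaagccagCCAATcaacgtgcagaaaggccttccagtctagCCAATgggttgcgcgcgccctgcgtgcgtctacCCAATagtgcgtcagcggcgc
Cdc20: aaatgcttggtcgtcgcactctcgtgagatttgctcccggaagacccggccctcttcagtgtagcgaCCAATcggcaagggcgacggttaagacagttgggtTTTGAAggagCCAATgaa
Cdk1: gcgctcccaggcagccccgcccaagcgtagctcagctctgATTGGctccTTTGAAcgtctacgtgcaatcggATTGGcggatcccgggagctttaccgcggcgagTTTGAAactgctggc
Kif11: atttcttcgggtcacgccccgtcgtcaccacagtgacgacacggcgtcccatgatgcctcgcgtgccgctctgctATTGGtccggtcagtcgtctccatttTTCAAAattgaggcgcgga
Ube2c: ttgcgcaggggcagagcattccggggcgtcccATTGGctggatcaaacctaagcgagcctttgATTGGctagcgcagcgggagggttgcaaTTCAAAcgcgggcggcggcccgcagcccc
Melk: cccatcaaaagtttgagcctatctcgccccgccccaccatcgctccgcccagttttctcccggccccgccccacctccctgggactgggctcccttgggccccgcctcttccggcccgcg

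In Cdc20, Kif11 and Ube2c the CHR letters start at -18, -19 and -29, counted from the start site at +1. CCAAT letters lie upstream of them in each, and Cdc20 has a further match at -8. In Cdk1 both are present in duplicate. Ccnb2 has 3 CCAAT matches in the printed stretch and its TTTGAA at +5, just beyond it. Ccnb1 shows 2 CCAAT matches and no TTTGAA, and Melk shows neither. Over the whole 300 bases listed per promoter (250 before the start, 50 after), 42 of the 49 genes were in the table, with 44 promoters. TTTGAA occurred in 30 of the 42 genes (71.4%), against 20.2% of 27025 genes of the table and 14.1% of the 9262 that were tested. CCAAT occurred in 76.2% against 41.1% and 43.3%, and both in the same promoter in 61.9% against 7.97% and 5.84%. The TTTGAA matches lay near the start: 63.6% of the genes' promoters had one that began between -40 and +45, a window set after the positions were seen, against 4.39% of all 32851 promoters. The sequence GGNNTTTCC, a form of the site that NF-kB proteins bind, occurred in 3 of 42 genes (7.14%) against 6.62% of all genes of the table. These are exact letter matches, not measured binding, so an element spelled with other letters would be missed. By promoter content, the median fold change was -1.21 for the 26 genes with both TTTGAA and CCAAT and -1.23 for the 6 with neither (range -1.56 to 0.03), a description with no test.

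**Figure D2:**
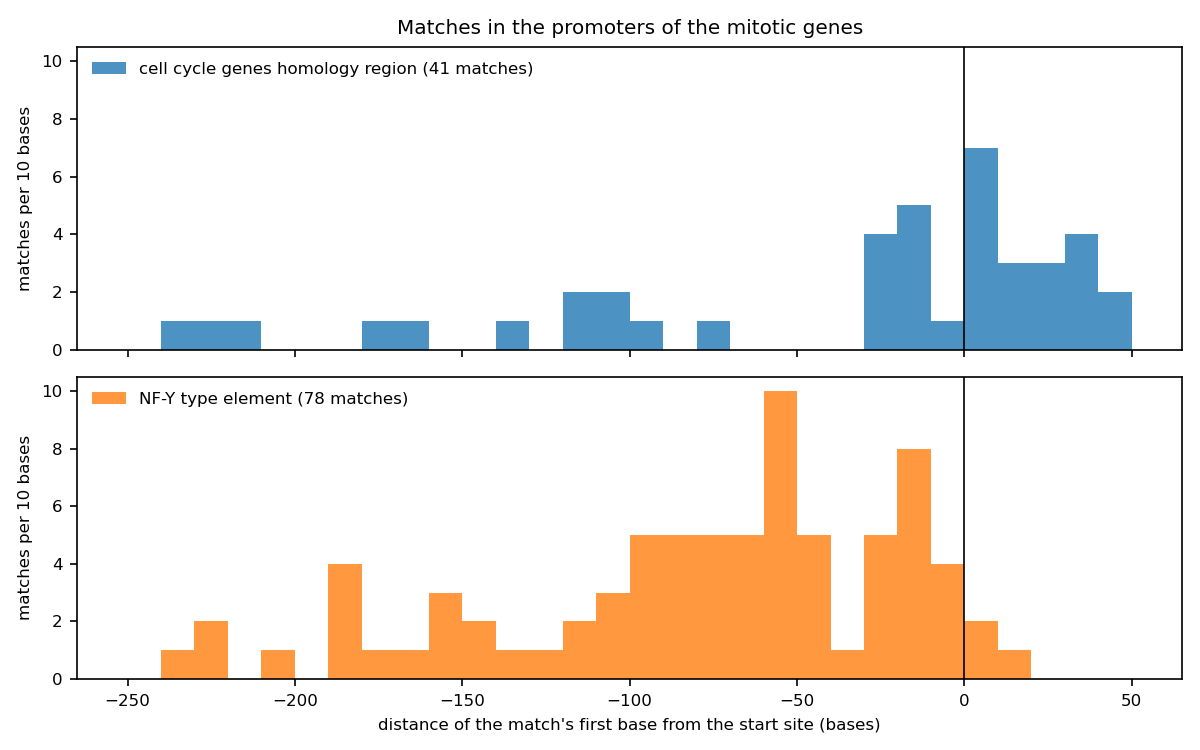
Position of each match in the 44 promoters of 42 mitotic genes, in bases from the start site, for the cell cycle genes homology region (top, 41 matches) and the CCAAT box that NF-Y binds (bottom, 78 matches); bars count matches per 10 bases. The upper matches gather around the start site (median -15) and the lower ones upstream of it (median -66).

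Values of single genes within a comparison are from here on CPM scaled by edgeR's trimmed mean of M-values (TMM), whereas sums over markers remain plain CPM of all gene counts. Among the cyclins, CDK1 and entry factors, 6 of 6 genes fell, with a median log2 fold change of -1.45. Ccna2 encodes cyclin A2, a CDK partner of S phase and early mitosis. It was at 66.5 and 63.4 in Ad-control and 22.7 and 21.8 in Ad-c-Rel, a log2 fold change of -1.55 (SE 0.10, edgeR adjusted p = 7.68e-08). The B cyclins activate CDK1 for mitotic entry. Ccnb1 was at 112 and 121 against 54.4 and 52.3, and Ccnb2 at 71.8 and 82.2 against 26.6 and 23.6. Foxm1, whose product activates many genes of this list, was at 9.42 and 6.37 against 3.12 and 2.12. Its 54 and 34 counts in Ad-c-Rel were among the lowest of the list, and its fold change of -1.57 had an SE of 0.25. Cdk1 fell least of these, from 30.7 and 32.8 to 18.1 and 16.8. For every one of these genes both Ad-c-Rel libraries were below both Ad-control libraries.

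The 7 mitotic kinases all fell, with a median of -1.14. Nek2, a kinase of centrosome separation, had the smallest p of the class at 34.7 and 32.9 against 11.5 and 9.80 (log2 fold change -1.66, SE 0.12, edgeR adjusted p = 2.99e-07). Plk1, polo-like kinase 1, which acts at entry, on the spindle and in division of the cytoplasm, was at 54.5 and 61.9 in Ad-control and 20.9 and 24.4 in Ad-c-Rel. Aurka, the centrosomal Aurora kinase, was at 51.8 and 58.8 against 22.6 and 21.3. The spindle checkpoint delays anaphase until every chromosome is attached. Of its kinase genes, Bub1 was at 38.7 and 39.2 against 20.3 and 23.7, and Bub1b, which encodes BubR1, at 59.9 and 67.9 against 30.8 and 36.4. Ttk was at 8.54 and 10.4 against 4.40 and 4.18, a log2 fold change of -1.14. Melk was nearest to no change in the class, at 21.1 and 23.9 against 15.5 and 14.7, a log2 fold change of -0.58 (edgeR adjusted p = 0.00453).

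Anaphase genes split. Cdc20 encodes the activator of the anaphase-promoting complex (APC/C), the ubiquitin ligase that marks cyclin B and securin for destruction. It was at 90.8 and 100.3 in Ad-control and 37.7 and 36.8 in Ad-c-Rel (log2 fold change -1.36, SE 0.09, edgeR adjusted p = 1.24e-07). Ube2c, the conjugating enzyme that works with the APC/C, had -1.39 and Espl1, which encodes the cohesin-cutting protease separase, had -1.44. Pttg1 encodes securin, the inhibitor of separase. It was at 58.4 and 66.4 in Ad-control and 62.0 and 65.2 in Ad-c-Rel, and these values overlap. Its log2 fold change was 0.03 (95% interval -0.17 to 0.22, adjusted p = 0.889). It was positive under TMM but negative when scaled by library size alone (-0.03) or to the T cell markers (-0.09). The whole interval lies above the list's median of -1.24.

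All 3 genes that this list holds from the chromosomal passenger complex, which corrects faulty attachments and guides cytokinesis, fell. Birc5, encoding survivin, was at 44.4 and 47.5 against 20.5 and 18.8 (log2 fold change -1.23). Aurkb, encoding its kinase, was at 86.3 and 93.0 against 50.4 and 50.5 (-0.83). The 5 centromere and kinetochore genes also fell, with a median of -1.18. Cenpf had the smallest p, at 28.3 and 31.0 against 11.1 and 12.1. Cenpa, the histone H3 variant that marks centromeres, had the smallest fall of the 47 genes, from 94.3 and 106 to 69.2 and 71.9 (log2 fold change -0.51, SE 0.09, edgeR adjusted p = 8.53e-04).

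Of the 9 kinesins, motor proteins that move along or dismantle microtubules, 8 fell. Kif20a, a motor of the central spindle, was at 48.5 and 49.4 in Ad-control and 16.1 and 19.4 in Ad-c-Rel (-1.47). Kif14 was 4.01-fold lower but rested on 11 and 23 counts in Ad-c-Rel. Kif11, the motor that pushes spindle poles apart, had -0.79. Kif15, a plus-end motor that can share that task, was at 16.2 and 13.7 against 13.4 and 14.0. Its libraries overlapped and its log2 fold change was -0.12 (95% interval -0.41 to 0.17, adjusted p = 0.599). The tables also hold a pseudogene row for Kif4, Kif4-ps, so the value of Kif4 (-1.35) is uncertain where reads of both copies could be split.

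The 6 spindle assembly genes fell, with Nusap1 at 68.4 and 75.9 against 28.5 and 32.7 and Tpx2, the activator of Aurora A on the spindle, at 67.2 and 77.4 against 42.0 and 43.4. The 5 cytokinesis genes fell as well, with a median of -1.02. Racgap1 was at 85.7 and 91.6 against 44.7 and 42.8, and Ect2, the exchange factor that it recruits to switch on RhoA, at 54.8 and 55.0 against 30.0 and 29.3. Top2a, the topoisomerase that untangles sister chromatids, was at 233 and 266 against 134 and 140 (-0.87), and Mki67 at 39.3 and 36.6 against 18.1 and 22.7 (-0.90). Pif1, a DNA helicase, had the lowest fold change of all 11711 genes tested, at 12.1 and 10.2 against 2.08 and 2.87 (log2 fold change -2.17, SE 0.21). Mtfr2, a nuclear gene whose product acts at mitochondria, was at 14.5 and 14.9 against 4.34 and 4.56.

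**Figure D3:**
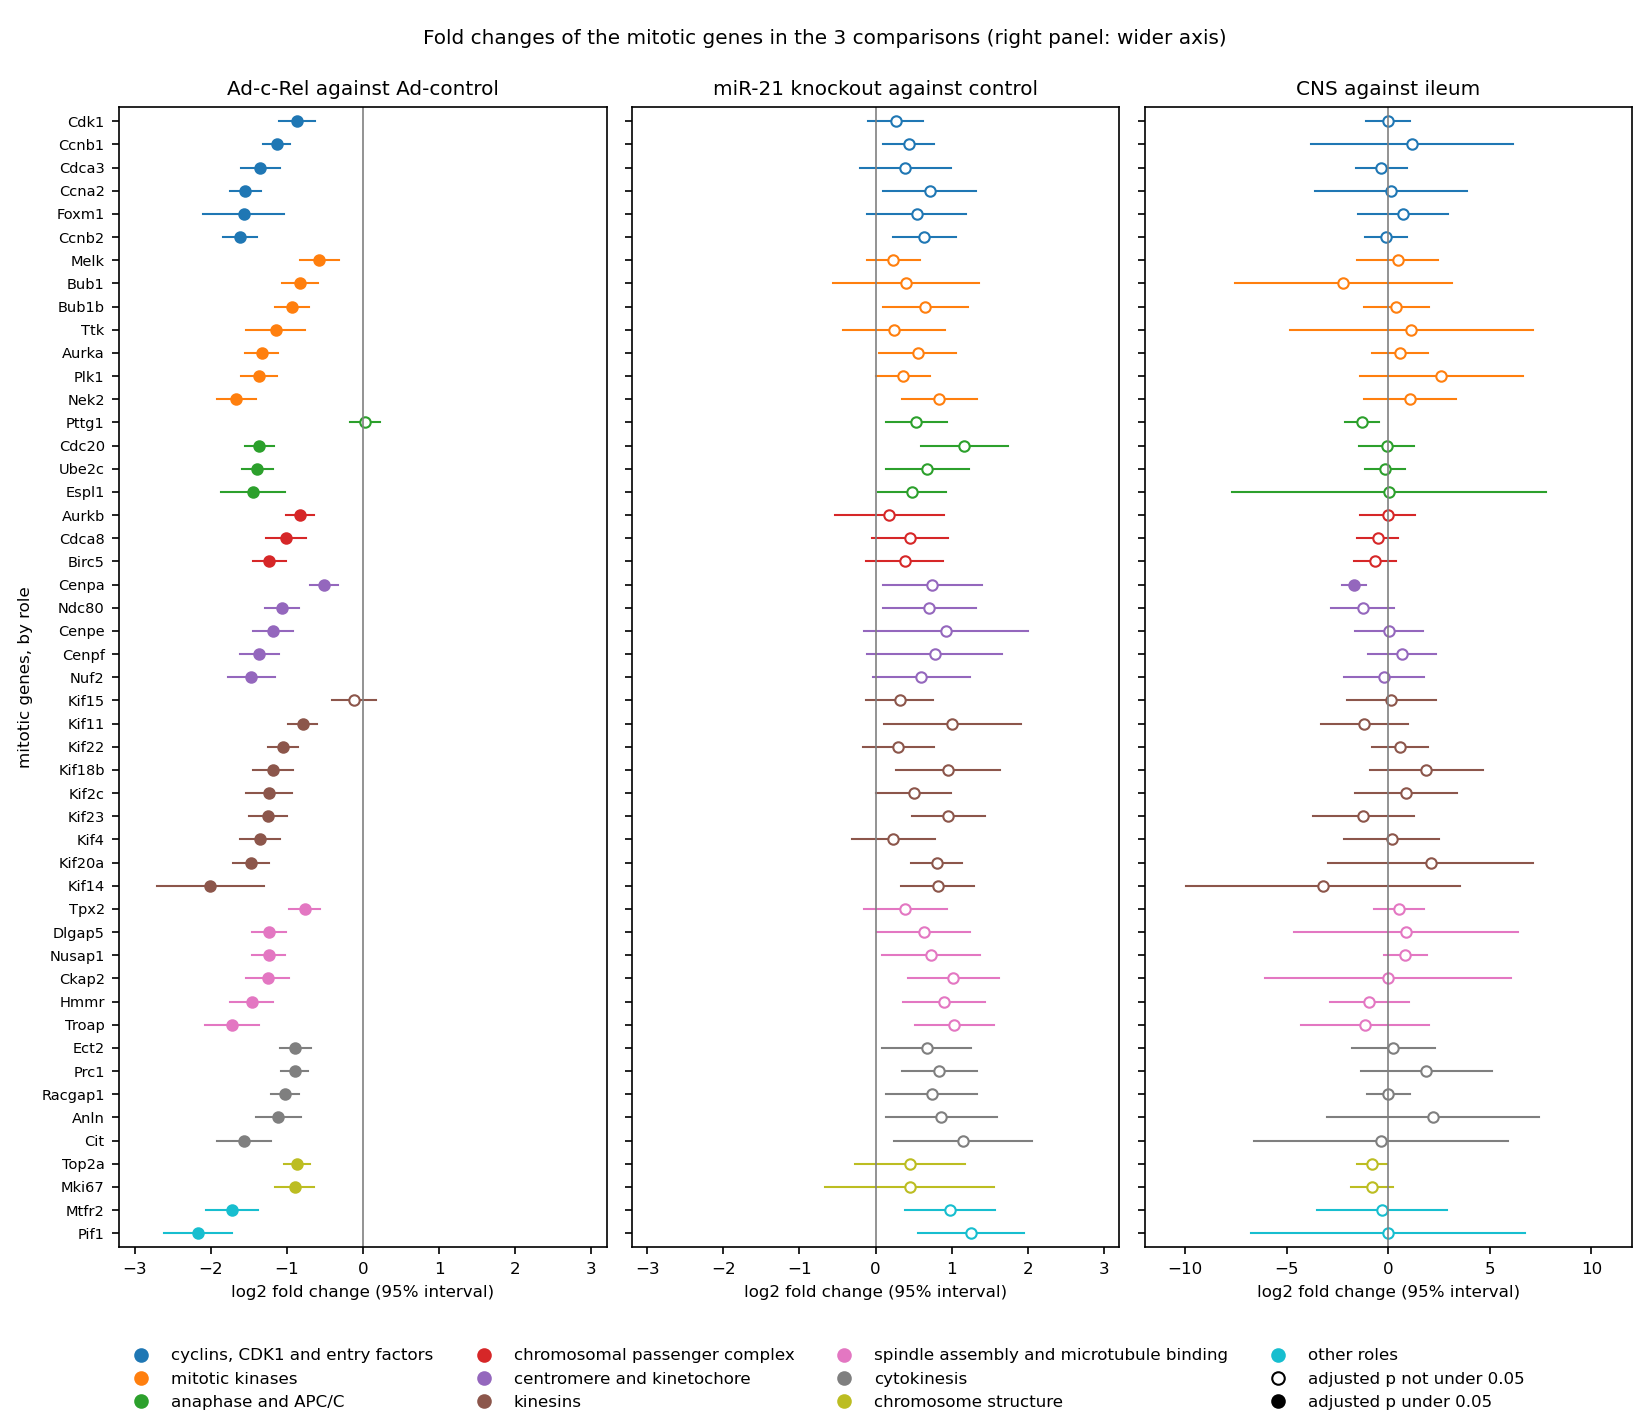
Log2 fold change (point) and 95% interval (line) of each of the 49 mitotic genes in the 3 comparisons, coloured by role; filled points have an edgeR adjusted p under 0.05. In the left panel 47 points are filled and negative, in the middle panel 49 open points are positive, and in the right panel, with a wider axis, 1 is filled (Cenpa).

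Other cell cycle genes, in lists that do not overlap with the 49, fell to different extents in Ad-c-Rel. Of all genes tested, 6.12% fell. Of 33 other spindle and cytokinesis genes 23 fell and 1 rose, with a median log2 fold change of -0.95. Ckap2l (-1.42), Cdca2 (-1.35) and Pbk (-1.35) had the smallest p. Of 36 other kinetochore and centromere genes 23 fell (median -0.67), with the smallest p for Spc24 (-1.44), Sgo1 (-1.21) and Sgo2a (-1.09). Of 14 mitotic entry kinases, phosphatases and CDK partners 8 fell (median -0.74), among them Cdc25b (-0.94), Cks1b (-1.07) and Mastl (-1.11). Of 19 condensin and cohesin genes 9 fell (median -0.21), including Ncapd2 (-0.90), Cdca5 (-1.0) and Ncaph (-0.52). Of 14 other APC/C subunits and partners 2 fell, the subunit Anapc5 and Fzr1, which encodes the co-activator CDH1 (both -0.26), and the list's median was -0.11.

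Among the MuvB, DREAM and E2F regulators 4 of 20 fell (median -0.10), against 6.12% of all genes tested. These were Rbl1 at -0.39, E2f2 at -0.48, E2f7 at -1.14 and Mybl2, which encodes B-MYB, at -0.60 (edgeR adjusted p = 0.0234). DNA replication genes, which act a phase earlier, fell in 16 of 36 cases with a median of -0.34. Pold1 had -0.69, Rrm2 -0.65 and Lig1 -0.88. None of the 7 G1 cyclins and CDKs tested passed as lower, and 2 rose, Ccnd2 (0.88) and Ccne2 (0.55, edgeR adjusted p = 0.0494), where 8.16% of all genes tested rose. The others were Cdk6 at 0.20, Ccne1 at 0.09, Ccnd3 at -0.03, Cdk4 at -0.14 and Cdk2 at -0.19. Ccnd1 was not tested. Of the CDK inhibitors, Cdkn1a (0.47) and Cdkn2b (2.89) rose, and Cdkn1b (0.20), Cdkn1c (0.07), Cdkn2d (-0.18) and Cdkn2c (-0.43) did not pass the threshold. Of the genes of these lists that matched the RefSeq table, TTTGAA occurred in the promoters of 7 of 14 condensin and cohesin genes (50%), 46.2% of 26 other spindle and cytokinesis genes, 4 of 10 mitotic entry genes (40%), 6 of 15 MuvB, DREAM and E2F regulators (40%) and 33.3% of 30 other kinetochore and centromere genes. It occurred in 1 of 6 CDK inhibitors (16.7%), 13.3% of 30 DNA replication genes, 1 of 13 APC/C subunits and partners (7.69%) and 0 of 5 G1 cyclins and CDKs.

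**Figure D4:**
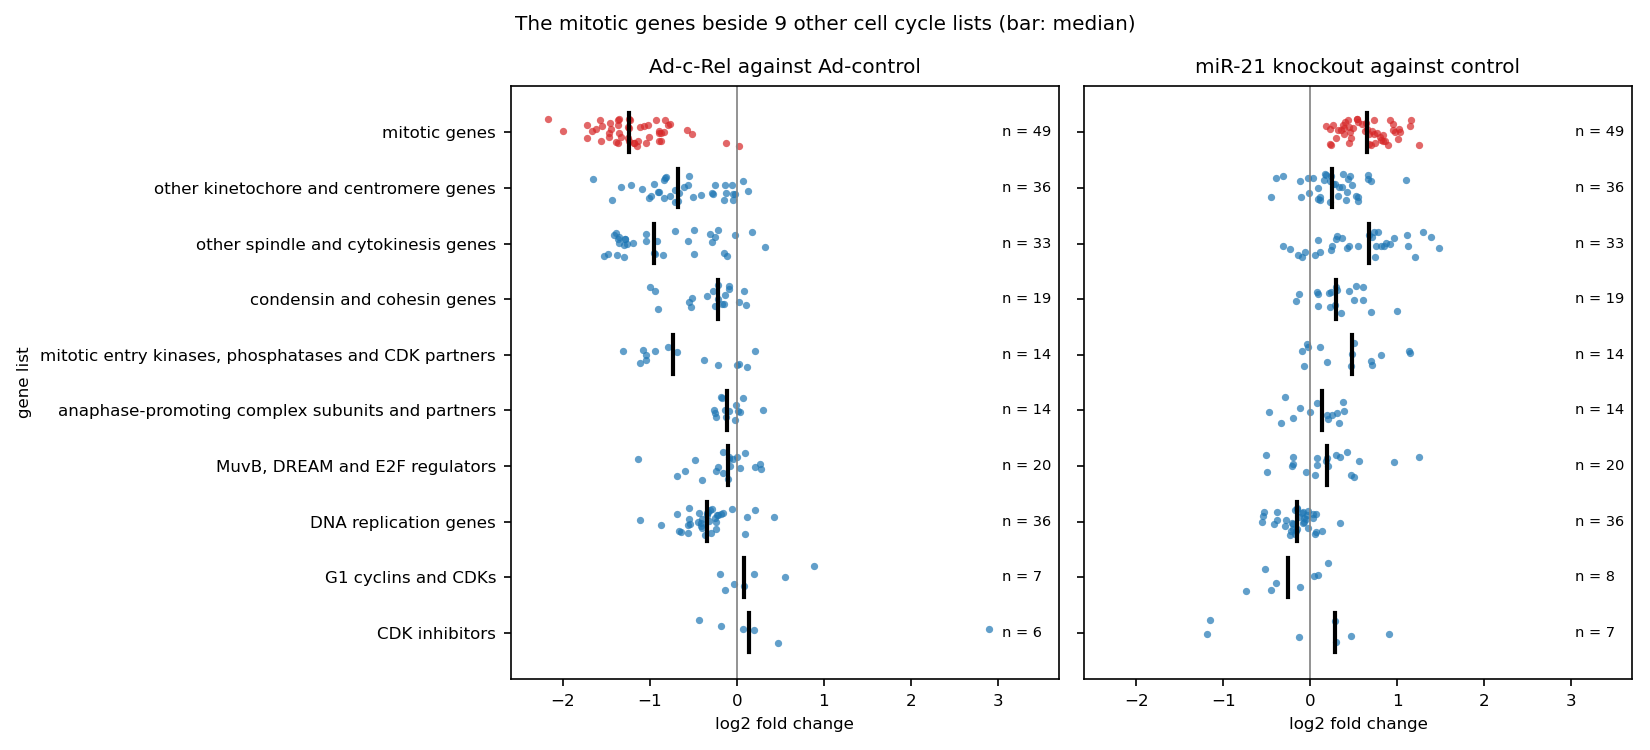
Log2 fold change of each tested gene (points) and the list's median (bar) for the 49 mitotic genes and 9 other cell cycle lists, in Ad-c-Rel against Ad-control and miR-21 knockout against control; n is the number tested. The mitotic genes have the lowest median of the 10 lists on the left (-1.24), and DNA replication genes have a median of -0.15 on the right, where the mitotic genes have 0.65.

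In miR-21-/- against control TH17(23) cells the fitted values went the other way, but no gene passed the adjusted test. All 49 mitotic genes had a fold change above 0, with a median of 0.65 on the log2 scale (1.57-fold) against -0.02 for all genes, and 6 lay above 1. The edgeR test called 0 of 49, and 0.0% of the 13428 genes tested were called higher. Adjusted p ranged from 0.125 to 0.740 over the list. At an unadjusted p under 0.05, 31 of the 49 were higher, against 9.6% of all genes. Both knockout libraries were above both controls for 36 of the 49, against 27.1% of all genes. With DESeq2 as the test 15 of the 49 were higher, against 1.82% of genes. The size of the values rested on which libraries entered. Without knockout replicate 1 the median was 0.93, and without knockout replicate 2 it was 0.36 with 44 genes above 0. Replicate 2 had more mitotic RNA than replicate 1 in both groups, by a median of 0.39 (log2) in knockouts and 0.26 in controls.

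Cdc20 was at 38.9 and 40.1 in the controls and 68.5 and 109 in the knockouts, a log2 fold change of 1.17 (SE 0.23, edgeR adjusted p = 0.126). Pif1 had the highest value, 1.25, at 15.1 and 16.3 against 27.1 and 47.6. Kif20a had the smallest unadjusted p, 0.00128, at 41.7 and 38.9 against 64.5 and 75.8. For these genes the controls lay close together and both knockout libraries were above them.

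The cyclin genes had smaller values. Ccna2 was at 66.0 and 84.4 in controls against 95.2 and 151 in knockouts, Ccnb1 at 72.5 and 67.6 against 86.7 and 103, and Ccnb2 at 42.1 and 51.2 against 65.3 and 80.2. None of these overlapped between groups. Cdk1 was at 59.9 and 61.4 against 64.9 and 80.8, a log2 fold change of 0.26, and Foxm1 at 36.0 and 52.6 against 51.4 and 77.4, where the groups overlap.

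Plk1 was at 41.4 and 40.9 in controls and 47.5 and 58.0 in knockouts, and Aurka at 41.5 and 46.5 against 52.5 and 76.5. Bub1b was at 78.7 and 94.5 against 109 and 164, while Bub1 overlapped at 59.4 and 96.1 against 66.8 and 139. Aurkb had the lowest value of the list, 0.18, at 79.9 and 116 against 83.3 and 139, and it was negative without knockout replicate 2 (-0.21) or control replicate 1 (-0.06). Birc5 was at 44.9 and 57.0 against 55.8 and 76.8. Both general proliferation markers overlapped: Top2a was at 520 and 742 against 664 and 1060, and Mki67 at 254 and 550 against 374 and 721.

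By role, median log2 fold changes were 0.84 for cytokinesis genes, 0.81 for spindle assembly genes and 0.80 for kinesins. They were 0.49 for cyclins and entry factors, 0.40 for mitotic kinases and 0.38 for the chromosomal passenger complex. Other spindle and cytokinesis genes had a median of 0.67 with 28 of 33 above 0, whereas 29 of 36 DNA replication genes were below 0 with a median of -0.15. Of 20 MuvB, DREAM and E2F regulators 14 were above 0 and 6 below (median 0.19). Mybl2 was among those below, at -0.50 (edgeR adjusted p = 0.154). The G1 cyclins and CDKs lay between -0.74 (Ccnd1) and 0.21 (Cdk2), with Cdk4 at -0.52, Cdk6 at -0.45, Ccnd2 at -0.39, Ccne2 at -0.11, Ccnd3 at 0.04 and Ccne1 at 0.09. The CDK inhibitors were Cdkn2b at -1.18, Cdkn2a at -1.16, Cdkn1a at -0.13, Cdkn2d at 0.28, Cdkn1b at 0.29, Cdkn2c at 0.47 and Cdkn1c at 0.91, and none of either list passed. In the same libraries the 4 TH17 markers summed to 446 and 114 CPM in knockouts and 1797 and 1209 in controls, and the T cell markers to 3571 and 3421 against 3952 and 3905. The part of these differences in the mitotic values was not tested.

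The genes that fell most with c-Rel tended to be those with the higher values in the knockout. Across the 49 genes, the log2 fold changes of the 2 comparisons had a Pearson r of -0.46 and a Spearman rho of -0.45, a description without a p. No library is shared between these comparisons, but genes within each share the same 4 libraries. Fold changes with c-Rel also went with the log2 mean level in Ad-control (Pearson r = 0.425, Spearman rho = 0.421), with larger falls at lower levels. The Ad-control libraries enter both of those values, and the part of level was not tested. Pif1 was at the extreme of both (-2.17 and 1.25), and Melk (-0.58 and 0.23) and Kif15 (-0.12 and 0.32) had small values in both. Cenpa was an exception with -0.51 and 0.74.

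**Figure D5:**
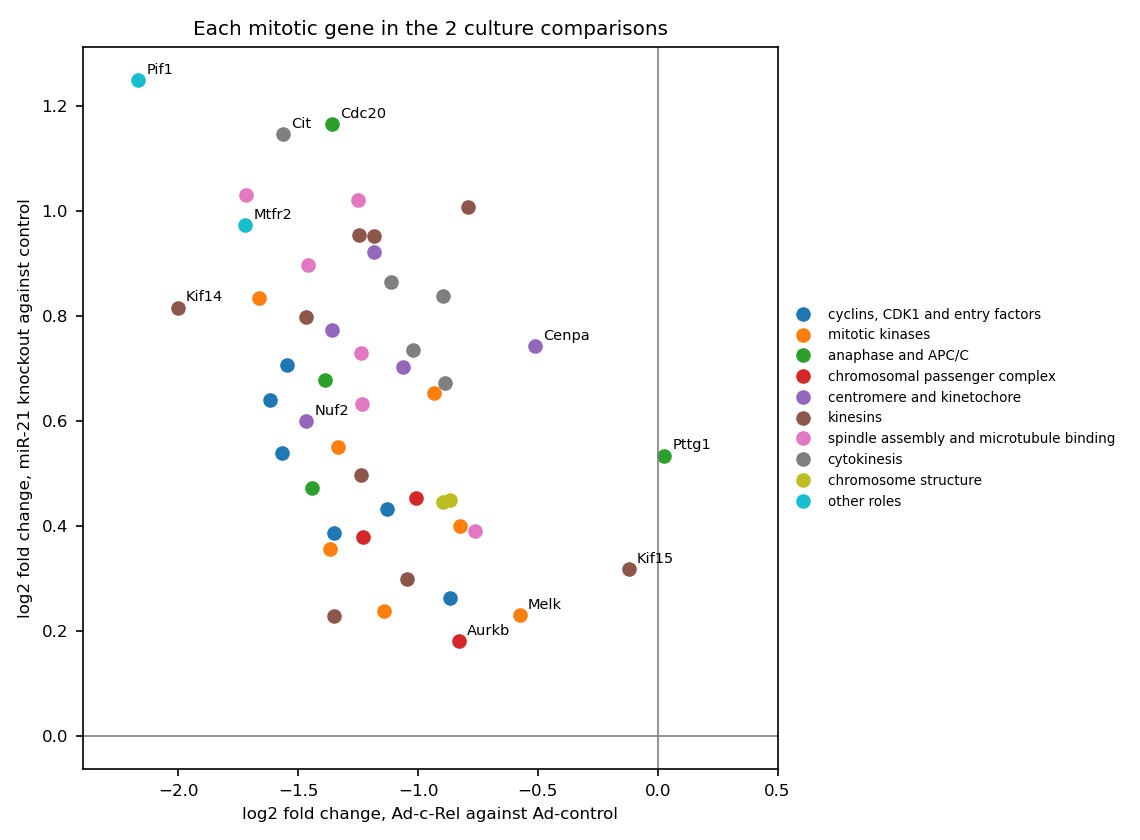
Log2 fold change of each of the 49 mitotic genes in Ad-c-Rel against Ad-control (x axis) and in miR-21 knockout against control (y axis), coloured by role. Points at the upper left, such as Pif1 at -2.17 and 1.25, combine low values on the first axis with high values on the second (Pearson r = -0.46).

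Between tissues, mitotic genes showed no common direction. In CNS against ileum 1 of 49 was lower and 0 higher (edgeR, adjusted over 12038 genes), against 5.66% of genes lower and 4.0% higher. Fold changes were above 0 for 25 genes and below 0 for 24, with a median of 0.01. The median became 0.44 when scaled to the T cell markers and 0.23 by library size alone. Over all genes tested it moved alike, from 0.08 to 0.48 and 0.28. The libraries did not overlap for 22 genes, 13 higher and 9 lower in CNS, where 59.8% of all genes did not overlap in one direction or the other. Single genes were imprecise, with a median SE of 0.82 against 0.11 in the Ad comparison.

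Cenpa was the gene that passed, at 199 and 222 in ileum and 55.8 and 76.3 in CNS, a log2 fold change of -1.67 (SE 0.24, edgeR adjusted p = 0.0141). It was lower in every alternative, with adjusted p still under the threshold. Pttg1 was at 79.2 and 135 against 42.7 and 43.4 (-1.31, edgeR adjusted p = 0.0736). It passed with DESeq2, without the filter on low counts, without ileum replicate 1 and in the fit over all 12 libraries. Top2a was at 124 and 89.2 in ileum and 70.0 and 51.5 in CNS (-0.81, edgeR adjusted p = 0.177), and Mki67 at 65.4 and 43.9 against 39.4 and 23.5. Both CNS libraries were below both ileum libraries for these genes.

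Cdk1 was nearly level, at 26.1 and 23.8 in ileum and 24.1 and 24.8 in CNS. Ccnb2 (49.4 and 27.7 against 36.7 and 35.0), Cdc20 (22.6 and 26.7 against 31.3 and 15.2) and Aurkb (24.0 and 40.1 against 19.5 and 43.3) overlapped between tissues. So did Birc5 (46.0 and 78.3 against 30.6 and 47.5), Bub1b (40.1 and 18.9 against 20.8 and 57.1) and Foxm1 (13.6 and 4.95 against 9.12 and 21.6). Aurka was at 12.1 and 17.2 in ileum and 21.7 and 22.0 in CNS.

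Several genes were present in one sorted replicate and at 0 in the other. In ileum replicate 2, 8 of the 44 mitotic genes with at least 50 counts in replicate 1 had 0 counts: Anln, Ccnb1, Cit, Ckap2, Dlgap5, Espl1, Kif20a and Ttk. Over all genes that share was 5.44%. In CNS replicate 2, 3 of 48 such genes were at 0 (Bub1, Espl1 and Pif1), against 3.65%. In the other 8 libraries no mitotic gene was at 0. Ccnb1 was thus at 23.3 and 0 in ileum against 29.1 and 23.7 in CNS, and Bub1 at 15.9 and 10.5 against 5.66 and 0. Ccna2 fell from 44.0 to 0.87 between the ileum replicates, with 33.7 and 15.7 in CNS. Plk1 had the highest fold change of the list, 2.62, from 7.58 and 0.12 in ileum and 20.4 and 26.8 in CNS, and Kif14 the lowest, -3.21, from 0.80 and 5.39 against 0.66 and 0. Neither passed the test. Without ileum replicate 1, which leaves the replicate with the zeros, the list's median log2 fold change was 0.29, the same as over all genes (0.29).

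The tissues also differed in markers of other cells. The 19 myeloid and microglia markers summed to 2608 and 2711 CPM in ileum against 21930 and 22520 in CNS, and 17 of the 19 were higher in CNS by the same test. The 10 B and plasma cell markers summed to 3970 and 3860 in ileum against 71.3 and 49.4 in CNS, and the T cell markers to 6322 and 6188 against 5365 and 5490. The part of these cells in the mitotic values of the sorted groups was not tested. In the other cell cycle lists 4 genes passed, where 5.66% of all genes tested were lower in CNS and 4.0% higher. Of 36 other kinetochore and centromere genes 1 passed, Cenpl (-2.36, lower). Of 14 APC/C subunits and partners 1 passed, Ube2s (-1.52, lower), which encodes a conjugating enzyme of the APC/C. Of 6 CDK inhibitors tested 2 passed, Cdkn1a (-1.50, lower) and Cdkn2d (1.43, higher). No gene of the remaining lists passed. The other CDK inhibitors tested were Cdkn1c at -3.69, Cdkn2b at -1.0, Cdkn1b at -0.61 and Cdkn2c at 0.12. G1 cyclins and CDKs ranged from -0.08 (Cdk6) to 4.38 (Ccnd1), with Ccnd3 at 0.89, Cdk4 at 0.48, Cdk2 at 0.31, Ccne2 at 0.23, Ccne1 at 0.20 and Ccnd2 at 0.08.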

How the data were processed

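Per the submitters' processing notes, the tools were TopHat2 2.1.0, Bowtie2, HTSeq 0.11.0, Trim Galore 0.4.4, CASAVA 1.4, DESeq2, HOMER and SAMtools with build mm10, their roles and order unstated. The authors deposited 1 table of raw counts per gene symbol for each of 12 libraries, neither normalized nor filtered as far as the values show. The sources used here do not give the annotation or strand setting, so reads of overlapping genes cannot be told apart. Lines that name no gene (14.7% to 26.1% of a table) stayed out of all sums. The line for reads with several alignments is 0 in the miR-21 libraries only.

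A fit used only the 4 libraries it compared, in edgeR 4.0.16 under R 4.3.3 (filterByExpr, TMM, quasi-likelihood F test, two-sided, Benjamini-Hochberg adjustment, threshold 0.05). It was first tested on simulated data in which every gene had the same fixed spread. That setting did not cover the zeros and wider spread of the sorted groups. Dividing the size of the log2 fold change by the root of F gave the SE, and intervals are 95%. Alternatives were DESeq2 1.42.0, other scalings, no filter, 1 fit over all libraries, a replicate block and leaving out each library. Promoters were matched by symbol to the RefSeq table and searched for exact letters on both strands. Each interval and p-value rests on 2 libraries per group.

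Members and lists were chosen with earlier results of these data known. Named are a fixed set of 14 core genes, in each role the genes of smallest p and of fold change nearest 0 in Ad-c-Rel, called genes and extremes elsewhere, and up to 3 called genes per list. Further genes were named after their values were seen. One gene of the TH17 marker list is not reported here.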

Additional observations from a re-analysis of the deposited data

How the results depend on the processing

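For Ad-c-Rel against Ad-control the count of 47 genes was the same in 10 of 11 alternatives and became 0 in 1 fit over all 12 libraries. The cause was not tested. The median of -1.24 was -1.35 when scaled to the T cell markers and -1.18 to -1.25 when any library was left out. Pttg1, not called in any alternative, changed sign to -0.031 by library size alone and to -0.092 when scaled to the T cell markers, and ranged from -0.064 to 0.12 when a library was left out.

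For miR-21 knockout against control the count of 0 by edgeR (31 higher at an unadjusted p under 0.05) became 15 with DESeq2 and 0 to 29 when a library was left out, with medians of 0.36 to 0.93. Aurkb then ranged from -0.21 to 0.51. Over all genes DESeq2 called 325 of 17897 higher and 468 lower. The highest count with a library left out came without knockout replicate 1, where the median was 0.93 for the list and -0.04 over all genes. Without knockout replicate 2 these medians were 0.36 and 0.01. A fit with the replicate number as a block called 44 higher, and of all 13428 genes it called 2287 higher and 2520 lower. The labels do not say that a number marks a shared animal or day, and 2 pairs cannot show it: deviations of same-numbered libraries correlated at 0.56 over 13428 genes (0.72 over the 49) here, 0.04 in the Ad comparison and 0.11 between tissues. The block changed neither of the other counts, 47 and 1.

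For CNS against ileum the count of 1 became 2 with DESeq2 or no filter, 4 in the fit over all 12 libraries, and 1 to 9 when a library was left out. Over all genes the main fit called 482 of 12038 higher in CNS and 681 lower. The fit over all 12 libraries called 1988 of 13815 higher and 2012 lower, and its 4 mitotic genes were all lower. The highest count came without ileum replicate 1, where the median log2 fold change was 0.29 for the list and 0.29 over all genes. Where a library was left out, the lone library of its group is assumed to vary like the others.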

Other observations

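RNA of Rel and of the mitotic genes moved in opposite directions in 1 culture comparison and in the same direction in the other, by fitted value. Levels of c-Rel protein were not measured in these libraries. In Ad-c-Rel, Rel was higher by 2.82 (log2, SE 0.14, edgeR adjusted p = 6.91e-09) and the mitotic genes had a median of -1.24. In miR-21-/- TH17(23) cells, Rel was at 59.8 and 66.2 CPM of all gene counts against 40.7 and 46.9 in controls, a log2 fold change of 0.60 (edgeR adjusted p = 0.161), and the mitotic genes had a median of 0.65. Neither Rel nor any mitotic gene passed the edgeR adjusted threshold in the knockout comparison. Rel was added after its values were seen. Culture conditions and the size of the difference in Rel both differ between these comparisons.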
